A study of Drosophila melanogaster with 2 samples.

Results

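Deep intron sites are peaks of the transcription factor Irbp18 with the summit inside a gene and in no exon of any of its transcripts. The summit also lies more than 2000 bp from the nearest annotated transcription start of any gene. Whether Irbp18 binds the DNA at each of these sites was not tested. They were chosen from the position of the peak summit in the authors' conservative peak list and from the Ensembl gene annotation, without use of any signal value. The list itself holds only peaks that passed the authors' limit on reproducibility, so recurrence and signal below are those of sites already selected. Of the 3424 sites on the chromosome arms X, 2L, 2R, 3L and 3R, 528 met this rule (15.4%, exact 95% interval 14.2 to 16.7). All 528 also met it when the RefSeq annotation took the place of Ensembl.

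The data are chromatin immunoprecipitation followed by sequencing from whole *Drosophila melanogaster* embryos. The flies carried Irbp18 (CG6272) as a fusion to enhanced green fluorescent protein, and the fusion was precipitated with an antibody against GFP. There was 1 group of 2 biological replicates, aged 0 to 24 h, and both carried the insertion, so no comparison between conditions could be made. Control libraries were not analysed here. The embryos held all cell types and stages at once, so a site used strongly in few cells and a site used weakly in many cannot be told apart.

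Irbp18 belongs to the C/EBP branch of the basic leucine zipper (bZIP) factors. It binds DNA as a dimer, with Xrp1 or with crc, the fly counterpart of ATF4, as known partners, and acts in stress responses and growth control. Composite C/EBP and ATF elements join the recognition bases of both families. Long introns of fly genes are known to hold enhancers and alternative promoters, and in developmental regulators they are often much longer than the coding sequence.

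The DNA under the strongest sites is shown first, before the counts of words and motifs in such windows. These are the summit and the 50 bases on either side of it (release 6 of the reference genome, dm6, plus strand, RefSeq sequence) at 8 of the 10 strongest deep intron sites. Capitals mark the 5 words of 6 bases, all made of A and T, that stood out most at deep intron summits on either strand. They are spelled out with their counts at the end, and some overlap each other.
CG32486 intron site, chr3L:3060746-3060846: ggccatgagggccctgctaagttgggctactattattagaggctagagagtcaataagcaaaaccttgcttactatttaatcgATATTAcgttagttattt
Tlk intron site, chrX:3742173-3742273: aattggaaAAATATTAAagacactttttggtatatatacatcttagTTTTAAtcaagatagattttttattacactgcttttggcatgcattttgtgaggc
tara intron site, chr3R:16236943-16237043: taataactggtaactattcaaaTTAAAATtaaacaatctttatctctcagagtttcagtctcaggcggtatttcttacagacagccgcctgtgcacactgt
trx intron site, chr3R:14283827-14283927: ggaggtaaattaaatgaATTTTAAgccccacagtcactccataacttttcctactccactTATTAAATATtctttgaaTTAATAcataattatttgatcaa
Raf intron site, chrX:2297666-2297766: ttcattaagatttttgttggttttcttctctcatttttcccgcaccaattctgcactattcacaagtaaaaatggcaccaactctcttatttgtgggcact
Gug intron site, chr3L:8458273-8458373: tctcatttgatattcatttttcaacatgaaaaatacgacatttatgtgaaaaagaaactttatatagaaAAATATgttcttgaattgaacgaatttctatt
CG32264 intron site, chr3L:3785182-3785282: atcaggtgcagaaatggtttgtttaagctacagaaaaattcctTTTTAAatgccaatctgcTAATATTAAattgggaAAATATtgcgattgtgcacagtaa
simj intron site, chr3L:10682926-10683026: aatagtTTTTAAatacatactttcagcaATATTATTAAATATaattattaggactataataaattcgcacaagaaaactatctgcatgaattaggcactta

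Of these 8 windows, 7 held at least 1 of the 5 words, and the Raf window held none. Any of the 5 words was present in 65.3% of deep intron windows, in 40.2% of windows of the same size centred 500 bp away, and in 58.4% of the windows of all 3424 sites. The share was 63.9% at intron sites more than 500 and up to 2000 bp from a start, 59.6% at promoter sites and 52.2% at intergenic sites. The words were picked from the same deep intron and flanking windows, so their presence here is a description.

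Also shown are 4 of the 5 deep intron sites with the highest pooled signal among those found in neither replicate's own list, marked in the same way.
beat-Ib intron site, chr2L:15908251-15908351: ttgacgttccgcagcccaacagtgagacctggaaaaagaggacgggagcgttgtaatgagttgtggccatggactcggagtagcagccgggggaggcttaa
heph intron site, chr3R:31941793-31941893: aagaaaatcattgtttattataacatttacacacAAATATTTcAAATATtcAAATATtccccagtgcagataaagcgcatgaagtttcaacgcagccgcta
raw intron site, chr2L:8717879-8717979: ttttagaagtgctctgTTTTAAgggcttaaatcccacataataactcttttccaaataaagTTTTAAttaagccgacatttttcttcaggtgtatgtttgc
KrT95D intron site, chr3R:24010898-24010998: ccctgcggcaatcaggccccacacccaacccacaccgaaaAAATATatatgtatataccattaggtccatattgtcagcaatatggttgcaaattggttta

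Of these 4 windows, 3 also held at least 1 of the words, and the beat-Ib window held none. Their GC content was 56.4% in beat-Ib, 31.7% in heph and in raw, and 42.6% in KrT95D, so these examples alone do not separate from the strongest sites by the marked words.

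Consensus sites of the C/EBP family were rare, and all 5 windows that held one are shown. In these the known motif lay within 50 bp of the summit, which is counted below as at the summit. Capitals mark the composite C/EBP-ATF element (CARE; TGATGCAA or TGATGTAA, either strand) in the first 3 and the C/EBP palindrome TTGCGCAA in the last 2.
Fas3 intron site, chr2L:18325249-18325349: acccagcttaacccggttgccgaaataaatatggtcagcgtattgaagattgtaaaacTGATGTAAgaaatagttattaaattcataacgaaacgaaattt
Ptp10D intron site, chrX:11659205-11659305: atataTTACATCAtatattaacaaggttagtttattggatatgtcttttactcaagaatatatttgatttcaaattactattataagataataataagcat
ImpL2 intron site, chr3L:4232312-4232412: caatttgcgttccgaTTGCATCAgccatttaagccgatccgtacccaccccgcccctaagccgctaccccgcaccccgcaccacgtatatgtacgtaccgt
Smr intron site, chrX:12735706-12735806: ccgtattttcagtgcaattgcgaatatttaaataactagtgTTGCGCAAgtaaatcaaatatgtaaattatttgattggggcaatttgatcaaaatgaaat
CG3655 intron site, chrX:1129717-1129817: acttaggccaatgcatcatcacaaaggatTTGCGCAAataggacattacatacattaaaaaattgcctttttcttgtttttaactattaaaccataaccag

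The CARE was found at 3 of 528 deep intron summits (0.568%, exact 95% interval 0.117 to 1.65) and in 2 of the flanking windows, and 0.584% of all site windows held it. The palindrome was found at 2 summits and in 1 flank, and in 0.175% of all site windows. Among the 5 sites, those in Fas3, which codes for an adhesion protein of epithelia, and Smr, which codes for a nuclear co-repressor, were in both replicates. The Fas3 site had a pooled signal of 155, with 101.5 in replicate 1 and 57.9 in replicate 2. The Smr site had a pooled signal of 217, with 131 in replicate 1 and 95.4 in replicate 2. Neither replicate's list held the sites in ImpL2, whose product binds insulin-like peptides, or in CG3655, and only replicate 2 held the one in Ptp10D, which codes for a receptor tyrosine phosphatase.

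The signal value is the authors' own height of each peak, and the sources used here do not give its scaling. Values are therefore compared only within a list. Over the 528 members the median was 114.6 in the conservative list (quartiles 82.4 and 161), and it ran from 2.71 to 1038. Signals over 500 were found at 7 members. The 5 strongest lay in CG32486, Tlk, Hr3, CG12769 and tara, and all of them were in both replicates.

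The strongest member, in the gene CG32486 (FBgn0266918), was at chr3L:3060659-3060951 and had a pooled signal of 1038, with 582 in replicate 1 and 450 in replicate 2. It lay 5717 bp from the nearest start, which belonged to CG16753, and 2672 bp from the nearest exon. It ranked 34 among all peaks of the list. The second was in Tlk (FBgn0283657), which codes for Tousled-like kinase, a nuclear kinase acting in chromatin assembly. It was at chrX:3742079-3742368, 2326 bp from a Tlk start, with a pooled signal of 946, 573 in replicate 1 and 376 in replicate 2.

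Genes of the ecdysone response, the steroid hormone cascade that times molting and metamorphosis, held some of the strongest members. The site in Hr3 (FBgn0000448), a nuclear receptor induced by ecdysone, was at chr2R:10219922-10220237, 7877 bp from a start of that gene. Its pooled signal was 906, with 517 in replicate 1 and 388 in replicate 2. Hr4, another nuclear receptor of the cascade, had 6 members, the strongest at 373 (186 in replicate 1, 180 in replicate 2). E23, which codes for an ABC transporter, had 3 members, the strongest at 208 (102 and 95.5). A site in tai, which codes for a coactivator of the ecdysone receptor, had 121 (61.4 and 46.8).

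The list of chromatin regulators had 4 hosts with 6 sites. A site in trx (FBgn0003862), which codes for the histone methyltransferase Trithorax, was at chr3R:14283740-14284017, 3026 bp from a trx start. Its pooled signal was 624, with 344 in replicate 1 and 290 in replicate 2. The site in the Polycomb group gene Psc had 323 (164 and 148), and the strongest of 2 in the demethylase gene Kdm2 had 307 (150 and 162). Of the 4 named hosts on the list of chromatin regulators, only psq had a site in neither replicate, at 69.7 (44.2 and 37.8). Outside that list, others of the 20 strongest members in both replicates lay in tara (664), a trithorax group gene on the list of developmental transcription factors, and, on none of the lists, in Gug (485), which codes for the co-repressor Atrophin, and in simj (437), a gene for a subunit of the NuRD remodelling complex.

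Raf and aos, which act in receptor tyrosine kinase signalling, hosted 3 of the 20 strongest members in both replicates. Both are on none of the gene lists and were grouped after the hosts were seen, so this is a description. Raf, which codes for a kinase of the MAP kinase cascade, held a site at chrX:2297587-2297845 with 517 (311 in replicate 1, 203 in replicate 2). A second Raf site, 5246 bp from its first start, had 388 (206 and 180). The site in aos, which codes for a secreted inhibitor of the EGF receptor, had 389 (226 and 163). In the plot of the 20 strongest members, replicate 1 gave the higher value at every site but the one in CG34417, where it had 185 and replicate 2 had 186. The replicate lists are on scales of their own, so this order says nothing on the strength of binding in the 2 embryo collections.

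**Figure D1:**
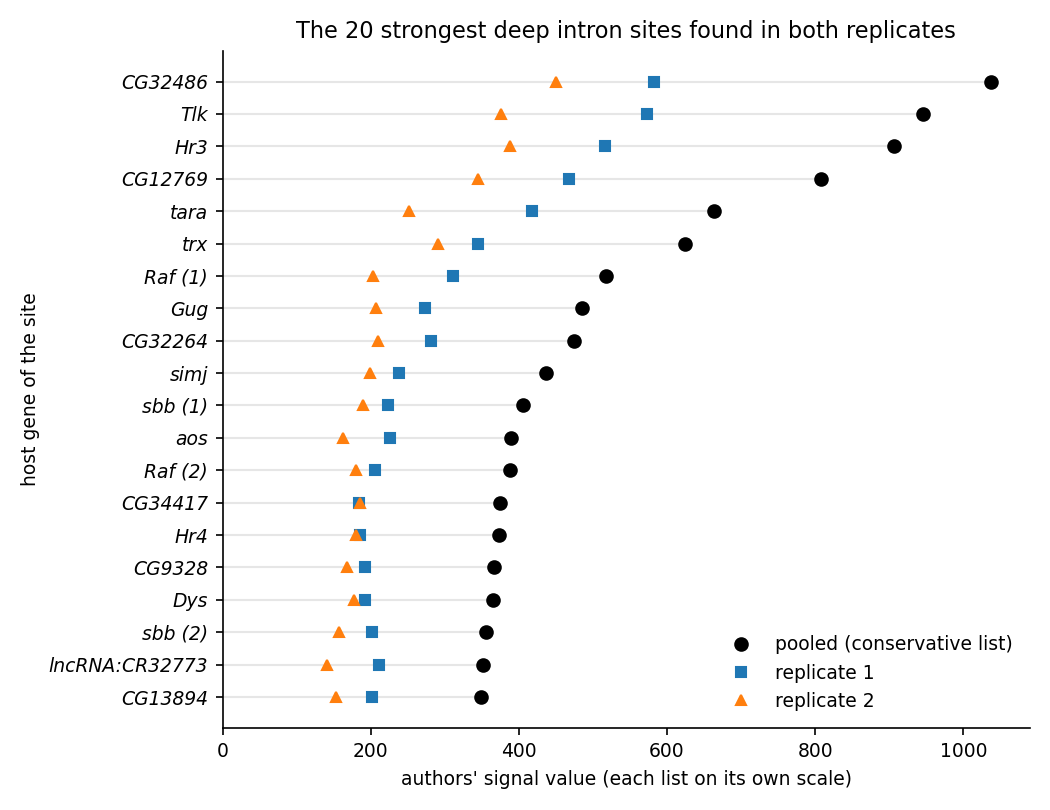
Signal values (x axis, no unit) of the 20 strongest deep intron sites found in both replicates, by host gene (y axis), in the pooled conservative list (black circles), replicate 1 (blue squares) and replicate 2 (orange triangles). The pooled signal falls from 1038 in CG32486 to 349 in CG13894, and numbers in parentheses tell sites of one gene apart.

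The members were spread over many genes, and a few genes held several. By the nearest start, the 528 sites were assigned to 331 protein-coding and 9 noncoding host genes. The sites in the second kind, 9 in all, lay in genes for long noncoding RNAs, such as lncRNA:CR32773 with 351 (211 and 141). The most sites, 7, lay in sbb, which codes for the co-repressor Scribbler. Next were tara, Raf and Hr4 with 6 each, then sick, kirre, Antp and CG1677 with 5, and 10 genes had 4, of which Tlk and CG32264 had the highest signals.

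Within these genes the sites differed in height. All 6 Raf sites were in both replicates, with pooled signals from 96.4 to 517, and they lay 2250 to 23052 bp from its first start. In sbb, 6 of 7 were in both replicates and signals ran from 115.2 to 406. In CG1677, 1 of 5 was in both replicates and the highest signal was 123. Kirre, which codes for an immunoglobulin protein of myoblast fusion, had its 5 assigned sites 278429 to 356819 bp from its first start, and 2 of them were in both replicates. The 5 sites of the homeotic gene Antp had signals from 86.5 to 194, and 3 were in both replicates.

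**Figure D2:**
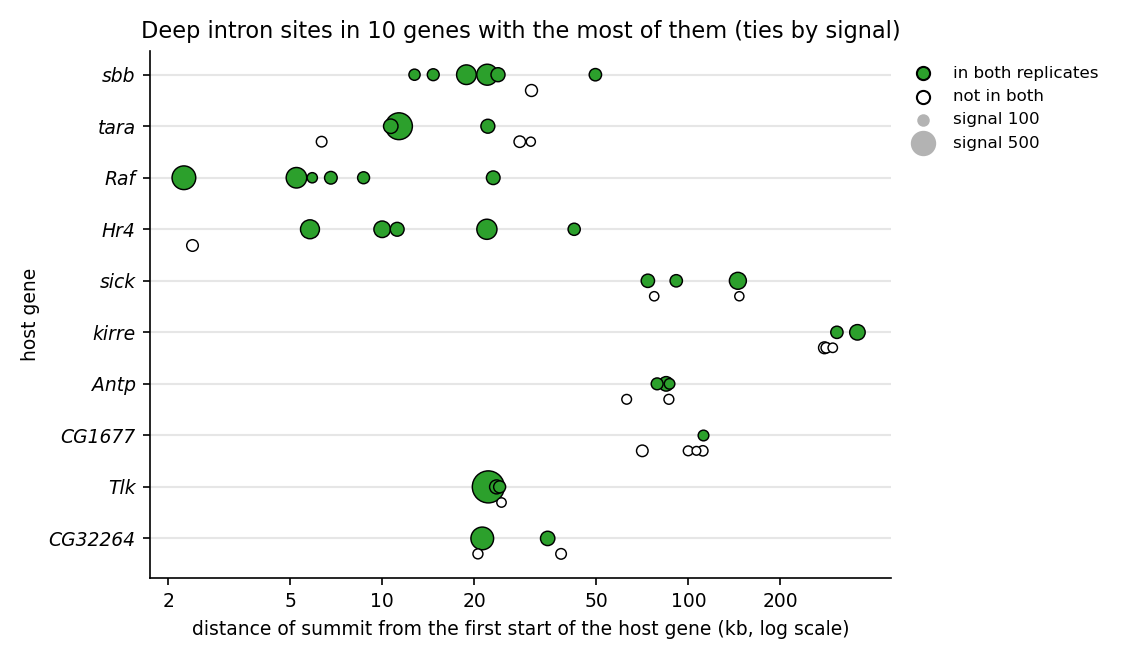
Deep intron sites in 10 host genes with the most of them (y axis; Tlk and CG32264 are the 2 with the highest signal among 10 genes tied at 4 sites), placed by the distance of the summit from the first start of the gene in kb (x axis, log scale). The area of a circle follows the pooled signal, filled circles were found in both replicates, and open circles, drawn just below the line, were not; Raf has 6 filled circles and CG1677 has 1.

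Some members lay close together along an arm, and how many of these shared a gene was not counted. Of the 528 members, 193 had another member within 5000 bp, so neighbouring members are not independent. The summit lay a median of 5454.5 bp from the nearest start (quartiles 3379.75 and 9371.5) and 2766.5 bp from the nearest exon. Only 4 lay within 50 bp of an exon, and 440 lay more than 1000 bp from one. The nearest start belonged to a gene other than the host for 196 members. The first intron of at least 1 transcript held 292 (55.3%). The share of all deep intron sequence that lies in such introns was not counted, so this is no sign of a preference.

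Just inside the limit of 2000 bp were a site in IP3K2 at 2017 bp from a start, with a pooled signal of 73.5, and one in CHES-1-like at 2018 bp, with 128. Just outside it were intron sites in CG32795 at 1998 bp, with 79.6, and in RhoGAP18B at 1997 bp, with 172.

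Deep intron sequence made up 40.99 Mb of the 5 arms, and it held 12.9 sites per Mb (exact 95% Poisson interval 11.8 to 14.0), against 25.9 for all sites over all sequence. The density fell with distance from the nearest start. It was 18.7 per Mb at 2 to 5 kb (241 sites, interval 16.4 to 21.3) and 14.8 at 5 to 10 kb (161 sites, 12.6 to 17.3). Beyond that it was 9.48 at 10 to 20 kb (80 sites, 7.52 to 11.8) and 5.22 over 20 kb (46 sites, 3.82 to 6.96). The intervals of the first 2 ranges overlap, and the others do not. The signal changed less: the median was 118, 113, 114.9 and 101.4 in the 4 ranges, with quartiles of 84.8 and 174 in the nearest and of 80.0 and 139 in the farthest.

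The arm X had more deep intron sites for its length than 2R, 3L or 3R. It held 146 sites, 18.2 per Mb (15.4 to 21.4), and its interval did not overlap those of 2R (11.6 per Mb, 9.27 to 14.4), 3L (10.4, 8.28 to 12.9) and 3R (10.9, 9.02 to 12.97). It overlapped that of 2L (14.3 per Mb, 11.5 to 17.5). These intervals treat sites as independent and cover counting error only, and the arms were not tested against each other.

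**Figure D3:**
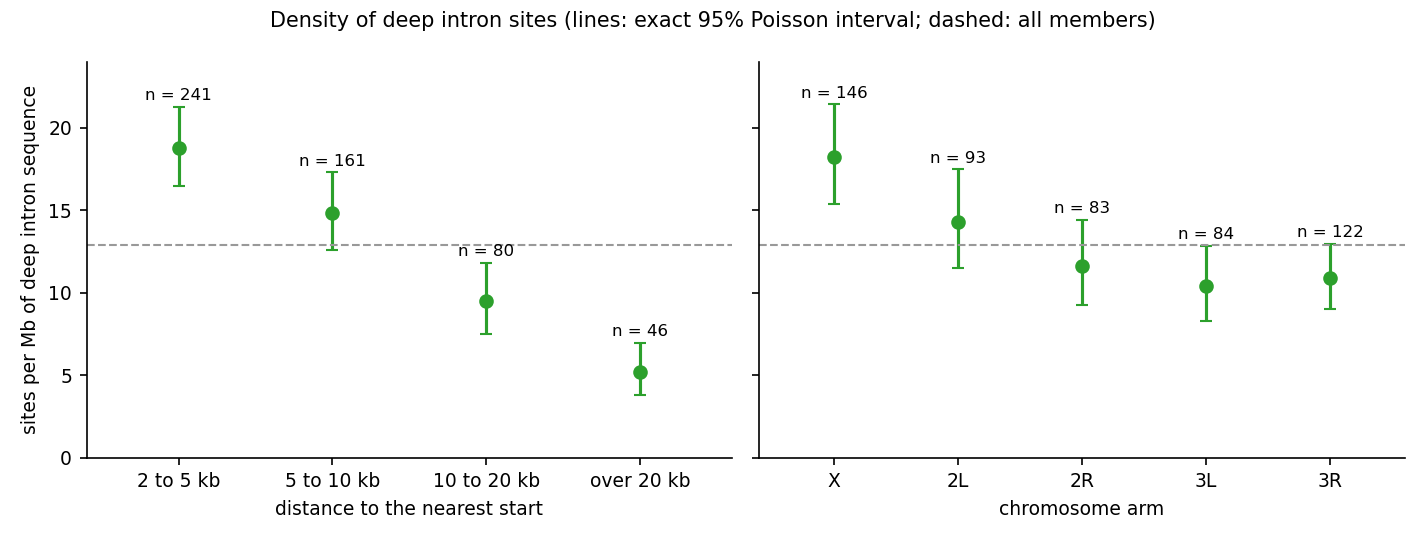
Deep intron sites per Mb of deep intron sequence (y axis) by distance to the nearest start (left) and by chromosome arm (right), with exact 95% Poisson intervals and the number of sites. The density falls from 18.7 at 2 to 5 kb to 5.22 over 20 kb, the X has the highest value of the arms, 18.2, and the dashed line is the value over all members, 12.9.

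Of 4155 protein-coding genes with any deep intron sequence, 340 held at least 1 such site (8.18%). That share was 21.4% among the 1385 genes with the most deep intron sequence, 3.10% in the middle tertile and 0 of 1385 in the lowest, so the counts of the gene groups below follow intron length as well. The gene lists were chosen with earlier results of these data known, and none was tested. The intervals of their densities treat sites as independent, though some genes held several, so they are too narrow. The densities were not adjusted for distance from a start, with which the density of all members fell. Here a gene counts as a host if any deep intron site lay in it, also where the site was assigned to another gene over the same place.

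Among genes of the ecdysone response, 9 of 15 with deep intron sequence held a site, with 39.2 sites per Mb (24.0 to 60.6) against 12.9 over all members. Of the 20 sites in these genes, 6 lay in Hr4. Chromatin regulators had 4 of 23, and 62.5 sites per Mb (22.9 to 136), on 0.0960 Mb of deep intron sequence. Developmental transcription factors had 13 of 41 and 25.9 per Mb (17.3 to 37.1). Beside tara, they included hth, which codes for a homeodomain cofactor, with 257 (145 in replicate 1, 108 in replicate 2). They also included grh, an epidermal regulator, with 241 (124 and 114), and ush, a partner of GATA factors, with 229 (147 and 84.3).

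Signalling genes had 10 of 38 hosts and 25.5 sites per Mb (14.8 to 40.8). A site in N, which codes for the receptor Notch, had a pooled signal of 264 (131 and 122). One in fz, which codes for the receptor Frizzled, had 240 (139 and 112). The Wingless co-receptor gene arr had 132 (75.8 and 60.6), and dlp, which codes for a glypican, had 132 (70.9 and 55.2) and was in replicate 1 alone. Cell polarity and cytoskeleton genes had 6 of 24 hosts, with signals of 151 in Myo10A, 151 in ed, 138 in scrib and 127 in aPKC at their strongest sites.

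Genes of neuron adhesion and guidance had 11 of 33 hosts and 14.8 sites per Mb (9.70 to 21.8), an interval that holds the value over all members. The strongest were in kirre (256, where CG32795 overlaps it and has the nearer start), the semaphorin gene Sema1a (221), the netrin gene NetA (202) and side (174), each in both replicates. Ion channel and synapse genes had 4 of 33 hosts and 4.05 sites per Mb (1.10 to 10.4), and RNA-binding proteins had 8 of 22 hosts and 7.06 per Mb (3.38 to 12.98). Named sites there lay in the phosphodiesterase gene dnc (192), the calcium channel gene Ca-alpha1T (161), the cation channel gene Ih (151), the RNA-binding genes shep (225) and Rbfox1 (186), and the potassium channel gene Shab (72.2). Of these only the Shab site was in neither replicate.

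Muscle genes had 5 of 18 hosts. The sites in how (152) and Zasp52 (129) were in both replicates and in replicate 1 alone, respectively, and those in mbc (94.5) and rols (93.2), which act in myoblast fusion, in neither. The bZIP genes and partners of Irbp18 had 3 of 11 hosts, and none of these sites was in both replicates. Atf3 had 2 sites, the stronger at 102 (68.7 and 38.01) and in replicate 1 alone, as was the site in CrebA at 99.7 (71.5 and 28.9). The site in Pdp1, at 83.3, was in neither, and it was also the only host among 9 clock genes. Of the 12 genes of the integrated stress response, 3 were hosts: Atf3, the hypoxia factor gene sima at 182 (109 and 74.1), and eIF4EHP, which codes for a cap-binding repressor of translation, at 163 (91.3 and 69.5). None of 9 genes of glycolysis and lipid metabolism was a host, on 0.0236 Mb of such sequence.

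A site at the promoter of the same gene was found for 96 of the 340 protein-coding hosts (28.2%) and for 823 of the 3815 genes with deep intron sequence and no such site (21.6%). Within the tertile of genes with the most deep intron sequence the shares were 27.9% and 18.3%. This difference was not tested.

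In the replicates' own lists, 323 of the 528 members were in replicate 1 and 257 in replicate 2, where found means a summit within 100 bp. Both lists held 229 members (43.4%, exact interval 39.1 to 47.7), neither held 177 (33.5%), 94 were in replicate 1 alone and 28 in replicate 2 alone. Of all 3424 sites, 47.2% were in both and 27.8% in neither, while 657 were in replicate 1 alone and 198 in replicate 2 alone. Among the 229 shared members the 2 replicates' signals had a Spearman correlation of 0.75 and a Pearson correlation of 0.85 between log10 values. These are descriptions over sites of 2 libraries, chosen for being in both.

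Most members had a candidate in the replicates even where the thresholded lists held none: 475 of the 528 had a candidate within 100 bp in both replicates' longer ranked lists, and so did 131 of the 177 in neither. These ranked lists held 117490 and 113421 candidates on the arms, over 132 Mb of sequence. How often a candidate lies within 100 bp of an arbitrary place was not counted. The median pooled signal was 174 for members in both and 77.4 for members in neither.

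Deep intron sites were in both replicates less often than promoter sites (summit within 500 bp of a start, also inside genes). They were there less often than near intron sites too, which lie in introns more than 500 and up to 2000 bp from a start. The shares were 43.4% against 51.2% of 1899 promoter sites (odds ratio 0.73, 95% interval 0.60 to 0.89, adjusted exact p = 0.00250) and 52.9% of 416 near intron sites (0.68, 0.52 to 0.89, adjusted exact p = 0.00584). Of 427 intergenic sites more than 500 bp from a start, 39.1% were in both (odds ratio 1.19, 0.91 to 1.56, adjusted exact p = 0.241). All 3 are two-sided Fisher's exact tests over sites, adjusted by the Benjamini-Hochberg method over 9 tests, and such p-values measure these lists of sites, not the spread between embryo collections.

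The pooled signal moved with this difference. The sites were divided at the quartiles of signal. Among those in the second group from the bottom the share in both replicates was 18.2% for deep intron and 18.04% for promoter sites (odds ratio 1.01, 0.58 to 1.70). In the third group it was 76.3% and 69.2% (1.44, 0.93 to 2.26), in the strongest 100% and 97.9%, and in the weakest no site of either class was in both. Among sites at the highest score only, neither difference passed the test, with an adjusted exact p of 0.250 for promoter and for near intron sites.

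Fewer deep intron sites were strong. The top 25% of all sites, above a signal of 193, held 89 members (16.9%), against 30.02% of promoter sites (odds ratio 0.47, 0.36 to 0.61, adjusted exact p = 6.00e-09) and 26.4% of near intron sites (0.56, 0.41 to 0.78, adjusted exact p = 0.000890). The share of intergenic sites was 16.9% (1.00, 0.70 to 1.43, adjusted exact p = 1). These p-values are from the same Fisher's exact tests.

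The same order appeared among all candidates the authors ranked. Those that passed the limit are nearly the sites already counted, so this is not a separate readout. On the 5 arms 2.66% of 128881 candidates had an irreproducible discovery rate (IDR, a measure of how badly a peak recurs) of at most 0.01. In deep introns 529 of 36797 did (1.44%). The share was 9.78% of promoter candidates (odds ratio 0.13, 0.12 to 0.15) and 4.27% of near intron candidates (0.33, 0.29 to 0.37, Fisher's exact test, adjusted exact p = 3.46e-58). Of 31179 intergenic candidates 1.37% passed (odds ratio 1.05, 0.92 to 1.197, adjusted exact p = 0.472). At an IDR of at most 0.05 the deep intron share, 2.69%, was below the intergenic share, 3.002% (odds ratio 0.89, adjusted exact p = 0.0139).

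**Figure D4:**
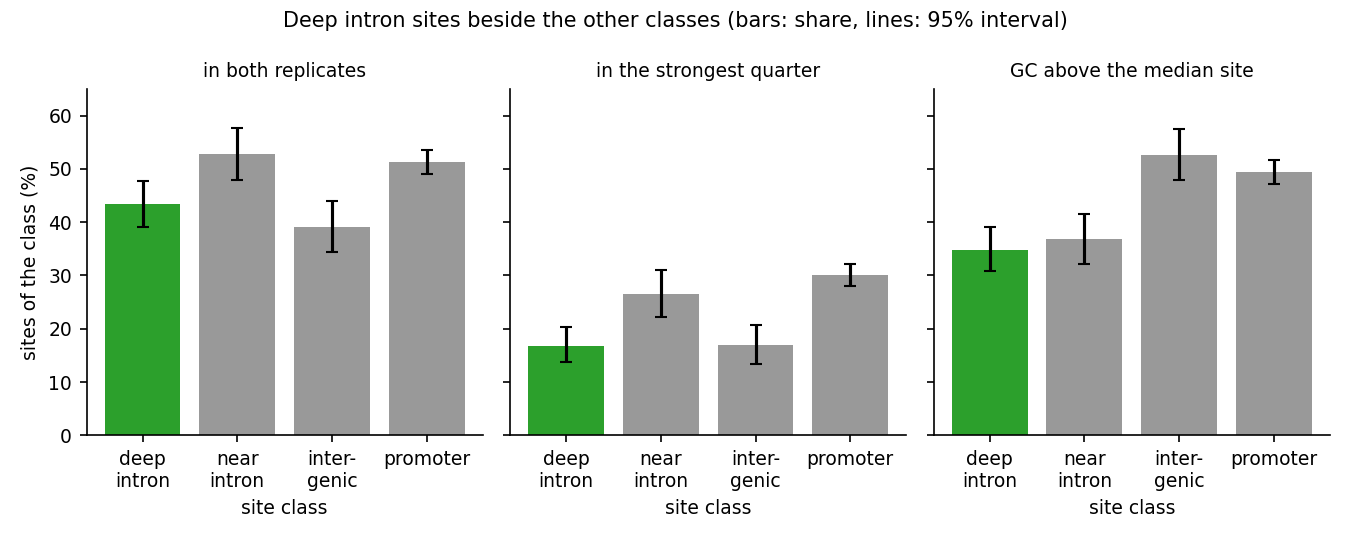
Share of sites (y axis, %) found in both replicates, in the top 25% of signal, and with GC content above the median of all sites, for 4 site classes (x axis), with exact 95% intervals. Deep intron sites (green, n = 528) are at 43.4%, 16.9% and 34.8%, against 51.2%, 30.02% and 49.4% of promoter sites.

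A narrow dip in GC content marked the summits. In bins of 25 bp, mean GC was 34.5% ± 0.63 (SE over 528 sites) at the summit, 44.4% ± 0.58 at 200 bp toward lower coordinates, 45.9% ± 0.58 at 200 bp toward higher ones, and 41.0% ± 0.57 and 41.7% ± 0.60 at 600 bp on either side. The bases beside the dip were richer in GC than the more distant intron. This shape was not particular to deep introns. Near intron sites had 34.6% ± 0.71 at the summit and 43.3% and 43.2% at 200 bp on either side. At 600 bp they had 39.4% and 40.7%. Intergenic sites had 39.6% at the summit, 44.5% and 44.2% at 200 bp, and 40.7% and 40.9% at 600 bp. Promoter sites rose less to the 200 bp bins, from 37.5% ± 0.34 at the summit to 41.9% ± 0.33 and 42.0% ± 0.33, and were still higher at 600 bp, with 46.3% ± 0.32 and 45.6% ± 0.33.

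**Figure D5:**
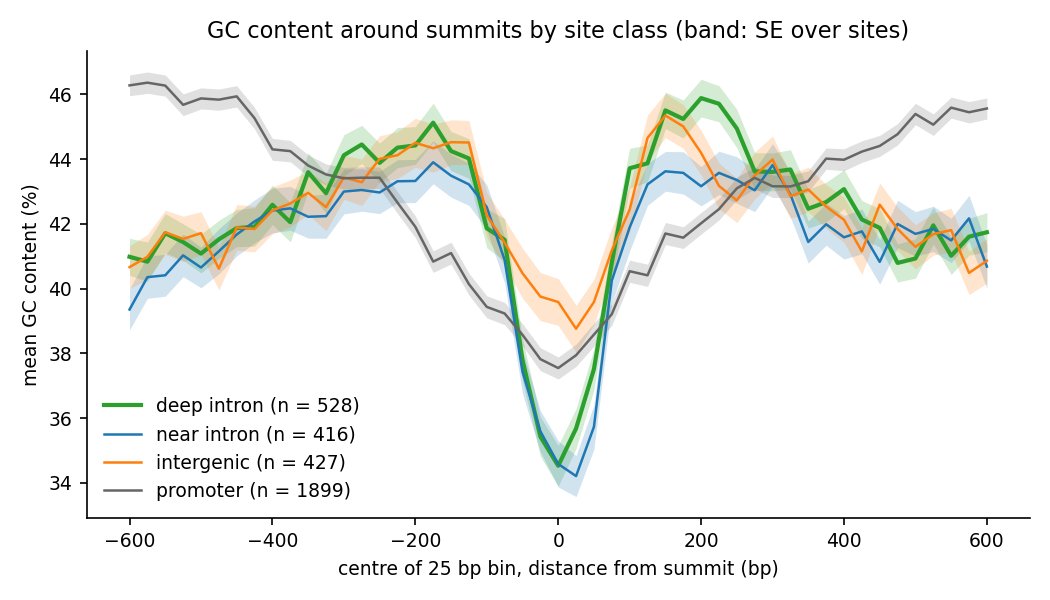
Mean GC content (y axis, %) in bins of 25 bp by distance from the summit (x axis, bp) for 4 site classes, with a band of 1 SE over sites. Deep intron sites (green) fall to 34.5% at the summit and reach 45.9% at 200 bp, while promoter sites (grey) have 37.5% at the summit and 42.0% at 200 bp.

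Over the summit and 50 bases on either side, 34.8% of deep intron sites had a GC content above the median of all sites. This was lower than for promoter sites (49.4%, odds ratio 0.55, 0.44 to 0.67, adjusted exact p = 9.76e-09) and intergenic sites (52.7%, 0.48, 0.37 to 0.63, adjusted exact p = 9.55e-08). Near intron sites had 36.8% (0.92, 0.70 to 1.21, adjusted exact p = 0.606). All are from the same family of Fisher's exact tests. In the third group by quartiles of signal the shares were 19.1% of deep intron and 50.8% of promoter sites (odds ratio 0.23, adjusted exact p = 1.90e-11). In the highest group they were 17.98% and 22.8% (0.74, 0.39 to 1.34, adjusted exact p = 0.407).

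GC content also split the members by recurrence. Median GC was 30.7% at members in both replicates and 41.6% at members in neither, the second equal to the median of all members' flanking windows. Windows above the median of all sites made up 20.1% of the 229 in both and 61.6% of the 177 in neither (odds ratio 0.16, 0.10 to 0.25, Fisher's exact p = 9.41e-18, chosen after seeing the data). Signal differed between the same groups, as given above, and its part in this was not tested. Members rich in GC could still recur: Hr4 sites at 9997, 11192 and 42378 bp from its first start had 51.5%, 63.4% and 49.5% GC and were in both replicates.

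A set of 29 members had signals under 20, from 2.71 to 18.8. A stronger site lay within 500 bp of 28 of them, none was in either replicate's list, and 14 were in the other pooled list. One lay 199 bp from the Notch site and had a signal of 7.72, against 264 for its neighbour. Their median GC was 48.5%, against 32.7% for the other 499 members. Every class held sites of such low signal, 119 in all. They made up 5.49% of deep intron, 3.11% of promoter, 2.64% of near intron, 3.28% of intergenic and 3.90% of exon sites. Without all sites of such low signal the share of members in both replicates was 45.9%, against 52.9% of promoter sites (odds ratio 0.76, Fisher's exact test, adjusted exact p = 0.0115).

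Known motifs were counted in the same windows and around a point 500 bp toward higher coordinates, and both counts were compared by the exact McNemar test, with adjustment over 20 motifs. None was more frequent at the summit, and 2 of 20 (10%) were less frequent. The GAGA repeat GAGAGAG, which binds the factor Trl, was at 2 summits and in 21 flanks (adjusted exact p = 0.000660), and 0.818% of all site windows held it. The repeat CACACACA was at 2 summits and in 22 flanks (adjusted exact p = 0.000660), and 0.876% of all site windows held it. Neither call was kept in the list of replicate 2 alone (adjusted exact p = 0.449 and 1) or at an IDR of at most 0.05 (0.139 and 0.0768), and the GAGA call was not kept in replicate 1 alone (0.0754). At an unadjusted p under 0.05 there were 3 motifs.

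The third was the relaxed C/EBP word, TTACNNAA or TTGCNNAA on either strand. It was at 102 summits (19.3%, exact interval 16.0 to 22.9) and in 76 flanks (14.4%), and in 16.7% of all site windows. Its unadjusted exact McNemar p was 0.0436 and its adjusted p 0.291. With windows of 100 bp on each side the adjusted p was 0.0360, and among sites at the highest score only it was 0.0235, with 1.66 times as many summits as flanks. In the 6 other alternatives it did not pass: the ratio of summits to flanks was 1.03 at an IDR of at most 0.05, 1.13 with the flank on the other side, 1.21 with 25 bp on each side, 1.205 in replicate 2 alone, 1.32 in the other pooled list and 1.45 in replicate 1 alone, with adjusted exact p from 0.195 to 1. The words of related bZIP dimers were rare. TGACTCA, bound by AP-1, was at 5 summits and in 3 flanks. TGACGTCA, bound by CREB proteins, was at 0 summits and in 2 flanks, and TTACGTAA, bound by PAR proteins, at 0 and 1.

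Against the other site classes 1 of 60 motif and class pairs passed Fisher's exact test (1.67%). It was the DNA replication-related element TATCGATA, which was at 0 of 528 deep intron summits, a count that allows a share of up to 0.568% by the limit of 3 counts (the exact 95% interval reaches 0.696%), and at 118 of 1899 promoter sites (6.21%; adjusted exact p = 9.89e-12). Of all sites 3.48% held it, and the deep intron flanks had 0. Near intron sites had it at 1 of 416 summits and intergenic sites at 0 of 427, so its absence was not particular to deep introns. Between members in both replicates and in neither, none of the 20 motifs differed by Fisher's exact test, and 0 did at an unadjusted p under 0.05. The relaxed C/EBP word was in 20.5% and 14.7% of these (odds ratio 1.498, 0.86 to 2.65, adjusted exact p = 0.758).

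No word of 8 bases stood out at the summits: of 1562 words, 0 (0%) were more frequent there than in the flank and 2 (0.128%) less, by the exact McNemar test adjusted over the words, and 166 had an unadjusted p under 0.05. The 2 were CACACACA and its shifted form ACACACAC, at 1 summit and in 19 flanks.

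Words of 6 bases, which were counted as an alternative, gave more calls. Of 2025 words, 32 (1.58%) were more frequent at the summit and 13 (0.642%) less. Of the 32, 14 were made of A and T alone and 30 had at most 1 G or C. TATTAA was at 106 summits and in 41 flanks (adjusted exact p = 9.71e-06, exact McNemar test), ATTTTA at 145 summits and in 69 flanks, and TTAAAA at 151 and in 74. ATATTA was at 110 summits and in 45 flanks, and AAATAT at 175 and in 96. Of all site windows these 5 words were in 17.5%, 24.8%, 27.7%, 17.5% and 28.4%. The other 2 of the 32 were CAGTGC, at 48 summits and in 20 flanks, and AGCATA, at 50 summits and in 22 flanks. Among words less frequent at the summit were CACACG, at 3 summits and in 33 flanks, and CTCTCC, at 4 and 23. With the flank on the other side of the summit, 43 words were more frequent at the summit, and 20 of the 32 were called again. Without sites of signal under 20, 50 were more frequent, among them 31 of the 32. The list of replicate 1 alone gave 46, and that of replicate 2 alone gave 14, with 20 and 12 of the 32 called again.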

How the data were processed

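The authors deposited peak lists on dm6 for each replicate and for 2 pooled analyses, per the labels and file names. The deposited score is a whole number capped at 1000, and the deposited signal is the authors' peak height in an unknown scaling. The IDR deposited by the authors is a −log10 value, and limits of 0.01 and 0.05 were applied to it. Neither aligner nor peak caller is named in the labels or headers, so both remain not given in the sources used here. Depth is unknown, since the lists hold no read counts, so intervals cover counting error over sites only.

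Sites are the 3424 arm summits of the conservative list (3454 peaks in all), annotated with Ensembl BDGP6.54, release 115, without pseudogenes and transposable elements. Sequence came from the RefSeq release 6 assembly, and none of arm 2R is printed. The replicate lists held 2748 and 2000 arm sites, and a member was in a replicate when its summit lay within 100 bp of one there. Replicate signals are those of the strongest ranked candidate within 100 bp. Tests were two-sided Fisher's exact and exact McNemar tests with Benjamini-Hochberg adjustment at 0.05 (Python 3.11.15, scipy 1.17.1), tested on simulated data. Words had to occur in at least 10 windows.

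Members, motifs and lists were chosen with earlier results of these data known. The genes named are the hosts of strongest sites in both replicates (20 were taken), the 10 hosts with most sites, up to 4 hosts per list by signal, and the sites next to the 2000 bp limit. A host is the protein-coding gene over the summit with the nearest start, otherwise another gene. Sites named for a motif, a low signal or a high GC content were chosen after their values were seen. Of the listed symbols, 5 were replaced by current ones and 12 were not found. Alternatives were other lists, score and IDR limits, distances, windows, flanks and each replicate alone.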

Additional observations from a re-analysis of the deposited data

How the results depend on the processing

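The number of deep intron sites was 989 at an IDR of at most 0.05, 287 with a limit of 5000 bp, and 295 to 381 in the lists of single replicates. The lower recurrence against promoter and near intron sites did not pass the test among sites at the highest score (odds ratios 0.86 and 0.79). Within the second and the third group by quartiles of signal, a split chosen after seeing the data, the odds ratios were 1.01 and 1.44 against promoter sites and 0.78 and 0.87 against near intron sites. With a limit of 1000 bp, recurrence was higher than at intergenic sites (1.30, adjusted p = 0.0471, Fisher's exact test). The odds ratio of strong sites against intergenic sites turned to 1.12 in the other pooled list, 1.24 for the top 50% and 1.15 with a limit of 1000 bp, none passing the test. That of high GC against near intron sites was 1.03 with 100 bp on each side, and 0.80 to 1.05 in single replicate lists. For candidates against intergenic ones it was 0.89 at the looser IDR. Of motifs against the flank, 4 passed with 100 bp on each side, 0 at the looser IDR, and 0 to 1 in single replicate lists. The ratio of summits to flanks for the CARE was 0.50 in either replicate alone, and for CATATG 0.81 to 1.31 in single replicate lists, without passing the test. Of motif and class pairs, 4 passed with 100 bp on each side. Words called numbered 45 with 6 bases and 0 to 3 in single replicate lists. The cause was not tested for any of these. Leaving out sites of signal under 20 changed no call among the site measures and moved no count of motifs or 8 base words by over 1.5 times. Unknown depth limits what an absent peak can show. No paired analysis was possible because there was 1 group.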
